A study of Homo sapiens with 16 samples.

Results

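HNF4A-only sites are the places where HNF4A was listed in S phase with no other mapped protein. They are the S-phase HNF4A peaks that overlap no S-phase peak of KLF5, MYC, RAD21 or CTCF by 1 bp or more. Of the 15437 S-phase HNF4A peaks, 8221 met this rule, or 53.3%. The rule used only S-phase lists, so S-phase values below describe the sites, and the M-phase lists are what it did not use.

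HNF4A is a nuclear receptor that binds DNA as a homodimer and keeps genes of epithelial differentiation and metabolism active in gut and liver. KLF5 is a Krüppel-like factor active in dividing cells of the gut lining, and MYC drives genes of cell growth. Both can bind the same enhancers and promoters as HNF4A. RAD21 is a subunit of the cohesin ring, and CTCF is a DNA-binding protein at whose motifs cohesin often accumulates. During mitosis chromosomes condense, and many transcription factors leave most of their sites, while some sites stay occupied.

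The cells were LoVo, an established human colon adenocarcinoma line, and binding was read from ChIP-seq, in which DNA precipitated with an antibody is sequenced, with 5 µg of antibody per precipitation after fixation in 1% formaldehyde in all groups. S-phase cells were blocked in 2 mM thymidine for 12 h, released for 8 h and blocked again for 12 h. M-phase cells had 12 h in 2 mM thymidine and then 8 h in 200 ng/ml nocodazole, a drug that prevents assembly of the mitotic spindle. Each target had 1 library per phase, so the spread between repeated experiments is unknown. The design text of the series speaks of siRNA against RAD21 and of a control siRNA, but the sample labels name none. Whether any of these libraries had such a treatment is unknown, and this bears on every statement about RAD21.

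After removal of repeated tags, the S-phase HNF4A library had 12182221 tags and the M-phase one 16813394. The S-phase libraries of the other 4 proteins were shallower, between 7520364 (CTCF) and 10345059 tags (KLF5). A missing peak in those lists means that none was called at that depth. Of the 8221 sites, 34 lay at an S-phase peak of histone H3, a protein of all nucleosomes, or 0.414%, beside 0.443% of the other HNF4A peaks. One label is in doubt: the number of peaks in the KLF5 list of M phase is given to the M-phase rabbit IgG library, which is also the control of M-phase HNF4A, MYC, RAD21 and H3. Whether these were exchanged was not tested.

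In S phase, HNF4A-only sites were mostly modest peaks. Their MACS score, which is 10 times the negative log10 of the peak's p-value, had a median of 90.6 and quartiles of 63.6 and 158. HNF4A peaks with KLF5 or MYC but no RAD21 or CTCF (3589 peaks) had a median of 102, and those with RAD21 or CTCF (3627 peaks) a median of 107. The median width was 1086 bp at HNF4A-only sites, against 1238 and 1257 bp in the other classes. The median tag count was 28, against 34 and 35. Fold enrichment over IgG went the other way, with a median of 9.92 at HNF4A-only sites and 9.41 in both other classes. Score, width, tags and fold enrichment are the authors' values for each peak.

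The strongest HNF4A peaks were seldom alone. Only 13 of the 100 S-phase HNF4A peaks of highest score were HNF4A-only, as were 115 of the top 500 and 323 of the top 1000. When the list was cut by score into 10 groups of equal size, 63.0% of the weakest group (group 1, 972 of 1544 peaks) and 37.1% of the strongest (group 10, 573 of 1543) were HNF4A-only. At the edge of the 1 bp rule, the 65 sites with a gap of at most 100 bp to another protein had a median score of 80.6 and a median width of 946 bp. The 46 excluded peaks that shared at most 100 bp in total had a median score of 101 and a median width of 1215.5 bp.

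About 1 in 9 HNF4A-only sites had an HNF4A peak in M phase. A site was called kept when an M-phase HNF4A peak overlapped it by at least 1 bp. This held for 932 of the 8221 sites, or 11.3% (95% Clopper-Pearson interval 10.7 to 12.0%), beside 12.3% of all S-phase HNF4A peaks. Intervals here are over peaks and cover counting error only. A site that was not kept had no M-phase peak called, at the depth of that library and of its IgG control (6875106 tags, against 10753369 for the S-phase control), which is not a measure of absent binding. No M-phase HNF4A peak, of 2413, had a false discovery rate (FDR, the authors' value) under 5%, so with that limit 0 of the 8221 sites would count as kept. Another 48 sites had an M-phase HNF4A peak within 1000 bp without overlap. Of the 2413 M-phase HNF4A peaks, 933 lay at an HNF4A-only site, or 38.7%. A further 509 lay at peaks with KLF5 or MYC alone, 485 at peaks with RAD21 or CTCF, and 486 (20.1%) at no S-phase HNF4A peak. The 38.7% is over all M-phase peaks, these 486 included. It is therefore not on the same base as the 53.3% of the S-phase list.

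Kept sites came mainly from the strong end. The 932 kept sites had a median S-phase score of 261, 58 tags and a fold enrichment of 18.4, and the 7289 others a median score of 84.0, 26 tags and 9.41-fold. Of the 100 HNF4A-only sites of highest score, 87 were kept (87%, 78.8 to 92.9%), and of the top 1000, 512 (51.2%, 48.1 to 54.3%). Those 1000 sites held 54.9% of all kept sites. The other HNF4A peaks showed this too. Of their 100 peaks of highest score, 94 were kept, and of their top 1000, 626 (62.6%, 59.5 to 65.6%). Those 1000 peaks held 64.6% of the kept peaks among the others. Their scores were also higher, with a lowest value in the top 1000 of 315, against 242 at HNF4A-only sites. The 4111 sites of lowest score held 68 kept sites, a share of 1.65%.

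How the kept share compared with that of other HNF4A peaks depended on how strength was taken into account. Unadjusted, HNF4A-only sites were kept less often, 11.3% against 13.4% of the 7216 other HNF4A peaks (969 peaks, 12.6 to 14.2%). This is a difference of -2.09 percentage points (95% interval by Newcombe's method, -3.14 to -1.05). Within the 10 groups of S-phase score the sign turned: the standardised difference, weighted by the smaller class in each group, was 2.28 points (1.43 to 3.14). HNF4A-only sites had the higher kept share in 8 of the 10 groups, and the interval of the difference lay above 0 in 4 of these and below 0 in none. In group 9, with scores from 205 to 322, 31.0% of HNF4A-only sites were kept against 23.4% of the others, a difference of 7.54 points (3.10 to 11.9). In the strongest group the shares were 63.2% and 63.5%, a difference of -0.329 points (-5.33 to 4.60).

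**Figure D1:**
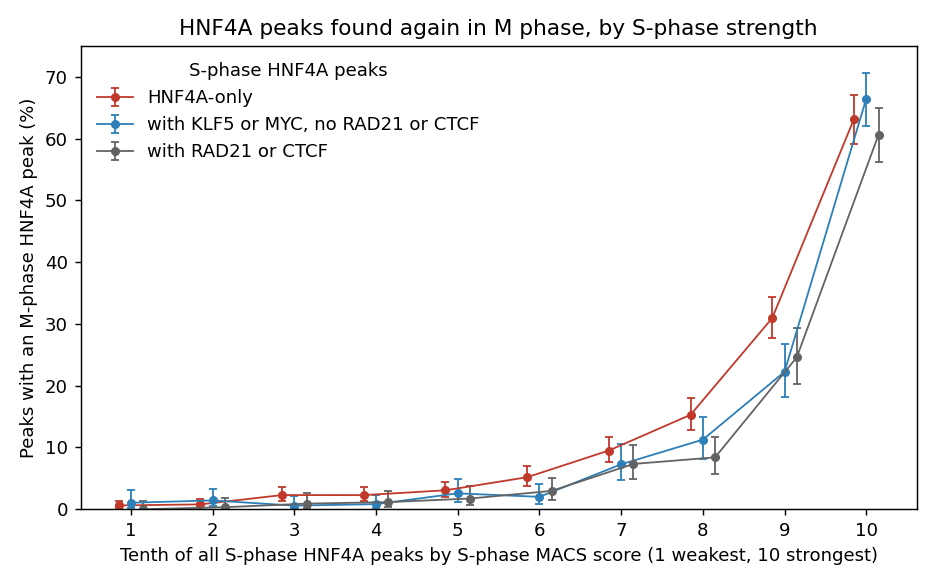
Share of S-phase HNF4A peaks with an M-phase HNF4A peak (vertical axis, percent) in 10 groups of equal size of the S-phase list ordered by score (horizontal axis, 1 weakest to 10 strongest), for HNF4A-only sites and both other classes, with 95% Clopper-Pearson intervals over peaks. No class is above 9.51% up to group 7, and HNF4A-only sites reach 15.3% in group 8, 31.0% in group 9 and 63.2% in group 10.

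The standardised difference was positive against each class of co-occupied peak. It was 1.46 points (0.306 to 2.62) against peaks with KLF5 or MYC only, which were kept in 13.8% of cases, and 2.37 points (1.20 to 3.53) against peaks with RAD21 or CTCF, kept in 13.0%. The measure of strength mattered. With groups of tag count the difference from all other HNF4A peaks was 4.65 points (3.74 to 5.55), and with groups of fold enrichment it was -1.64 points (-2.55 to -0.732). HNF4A-only sites had the lower median score and the higher median fold enrichment, so the order of the classes cannot be given without naming the scale. The kept share without adjustment also depended on the overlap rule: when 50% of each peak had to be shared, 6.80% of HNF4A-only sites were kept, and the difference from the others was 0.259 points (-0.534 to 1.05), while the standardised one was 2.57 points (1.86 to 3.28). Where both HNF4A lists were limited to scores of at least 100, the standardised difference was 0.997 points (-0.0246 to 2.02), an interval that includes 0.

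**Figure D2:**
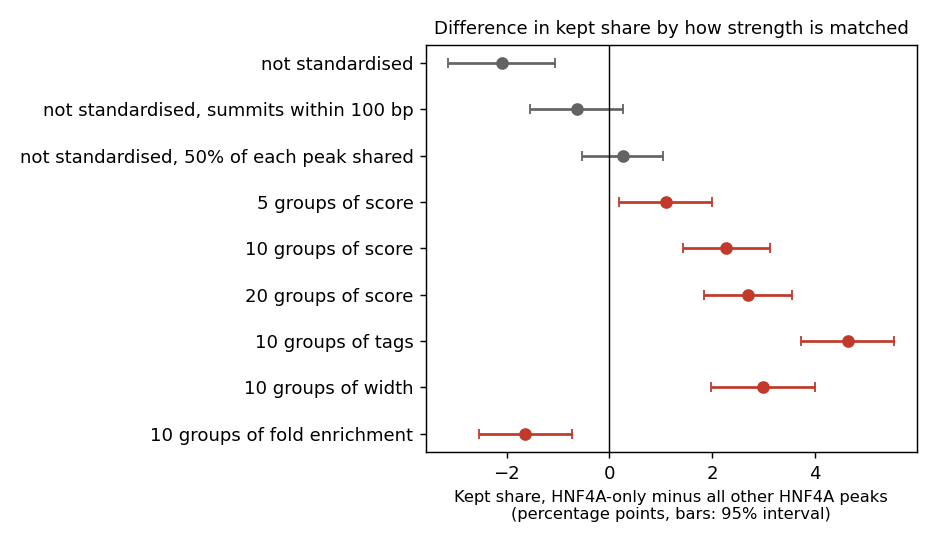
Difference in kept share between HNF4A-only sites and all other S-phase HNF4A peaks (horizontal axis, percentage points, bars are 95% intervals over peaks) without adjustment (grey) and standardised over groups of S-phase strength or width (red). The unadjusted value is -2.09, the value over 10 groups of score 2.28 and the value over 10 groups of fold enrichment -1.64.

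Kept HNF4A-only sites were weaker and narrower in M phase. At the 928 sites with 1 HNF4A peak in each phase, S-phase peaks had a median of 58 tags and M-phase peaks one of 24. Scaled per 1000000 library tags this was 4.76 (quartiles 3.37 and 6.40) against 1.43 (1.07 and 1.84). None of the 928 sites had more scaled tags in M phase, and the median ratio of M to S was 0.300 (quartiles 0.238 and 0.386). Nor did any of the 484 kept peaks with KLF5 or MYC only or the 461 with RAD21 or CTCF. Their median ratios were 0.247 and 0.261. At HNF4A-only sites the median width fell from 1354.5 to 745.5 bp. Per 1000 bp of called width, the scaled tags were 3.41 in S phase and 1.86 in M phase, with a median ratio of 0.570, and 27 sites were denser in M phase. Widths were called separately in each list, and the fragment size in the file headers went from 240 to 176 bp. Its part in the widths was not tested.

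At most kept HNF4A-only sites the M-phase summit lay close to the S-phase one. A site was kept only where the peaks overlapped, so this follows in part from that rule. The median distance between the S-phase and M-phase summits was 55 bp, and 700 of the 928 sites (75.4%) had summits within 100 bp. The M-phase peak lay wholly inside the S-phase peak at 845 sites (91.1%). The other classes were similar. With KLF5 or MYC only, 63.6% of kept peaks had summits within 100 bp and 92.6% lay inside, and with RAD21 or CTCF 73.3% and 93.9%. Sites with more S-phase tags tended to have more M-phase tags, with a Spearman rho of 0.626 across the 928 sites, given as a description of 1 library per phase. Of these M-phase peaks, 734 carried an FDR of 100%, and the lowest was 5.88%. No S-phase FDR at an HNF4A-only site was above 3.17%.

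The ratio of M-phase to S-phase tags at kept sites was also set beside that of the other classes within groups of S-phase score. S-phase peaks of the kept classes differed in width, with a median of 1354.5 bp at HNF4A-only sites, 1638.5 bp with KLF5 or MYC only and 1639 bp with RAD21 or CTCF. In score group 10 the median ratios were 0.261 (361 sites) and 0.231 (308 sites), and 0.228 (287 sites) with RAD21 or CTCF. In group 9 they were 0.290, 0.238 and 0.280, and in group 8, where peaks with RAD21 or CTCF had the highest, 0.316, 0.277 and 0.353. Per 1000 bp of called width the ratios were 0.486, 0.477 and 0.470 in group 10, 0.563, 0.565 and 0.602 in group 9, and 0.622, 0.608 and 0.662 in group 8. HNF4A-only sites thus had the highest ratio per width in group 10 but not in groups 8 and 9. Group 10 ran from a score of 322 to one of 2589, and no HNF4A-only site was above 1368. Scores within that group were thus not matched, and their part in the ratios was not tested. These medians describe single libraries and carry no test.

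**Figure D3:**
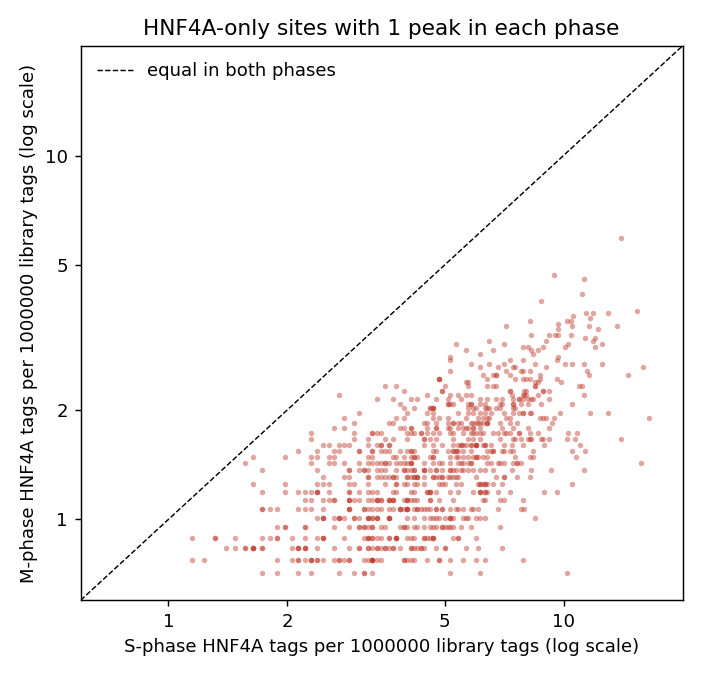
HNF4A tags per 1000000 library tags in S phase (horizontal axis, log scale) and in M phase (vertical axis, log scale) at the 928 HNF4A-only sites with 1 peak in each phase, 1 point per site. Every point lies below the dashed line of equal values, and the medians are 4.76 and 1.43.

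Single sites show how far apart the outcomes were. Positions are in the human build hg18. The HNF4A-only site of highest fold enrichment was chr14:70872595-70874184. Its S-phase peak of 69.88-fold had 145 tags, or 11.9 per 1000000 library tags, and its M-phase peak 62, or 3.69, with summits 23 bp apart. The nearest S-phase peak of another protein, MYC, was 15104 bp away, and no other protein was listed there in M phase.

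The second by fold enrichment, at chr6:114070011-114071611, had the highest score of all HNF4A-only sites, 1368. Its 149 S-phase tags at 68.96-fold were followed by 56 M-phase tags, with summits 6 bp apart. At chr5:42847050-42848570, 118 tags at 68.04-fold were followed by 54 in M phase, where a RAD21 peak of 24 tags was also listed. Next came 2 sites with fewer M-phase tags. At chr5:76116646-76117895, HNF4A went from 82 to 42 tags, and at chr16:27191992-27193623 from 108 to 50. These 5 sites were chosen for their S-phase fold enrichment, and tags were summed over widths called separately in each phase, so the lower M-phase numbers are a description only.

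By the naming rule, which leaves out chromosome 8 and sites at H3 peaks, the kept site with the most M-phase tags was at chr5:59087646-59088792. There 115 tags at 51.36-fold in S phase, or 9.44 per 1000000 library tags, were followed by 79 tags at 38.43-fold, or 4.70. At chr1:229140538-229142239, 137 tags were followed by 77, and at chr12:99969414-99972174, 136 by 70, next to an M-phase RAD21 peak of 45 tags. At the other end, the weakest kept site by score, at chr3:71783241-71784082, went from 20 S-phase tags to 14 M-phase tags. It lay 75 bp from an S-phase RAD21 peak and was overlapped by an M-phase RAD21 peak of 74 tags.

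Other sites of high fold enrichment were not listed in M phase. The leading one, at chr2:228967599-228968853, had an S-phase peak of 91 tags and 56.45-fold, and no M-phase HNF4A peak within 1000 bp. Its fold enrichment was thus above the 56.09-fold of the kept site on chromosome 16, and those of the sites that follow were below it. The site at chr20:47737414-47738969 followed with 85 tags at 49.87-fold, and then chr17:13936217-13937645, where 86 tags gave 48.73-fold. The site at chr12:48983762-48985093 held 74 tags at 45.05-fold, and that at chr19:3035523-3036707 76 at 42.34-fold. None of these 5 sites had a peak of any of the other 4 proteins in M phase. Their S-phase scores, from 534 to 760, lay in score group 10, where 63.2% of HNF4A-only sites were kept.

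Most HNF4A-only sites carried no peak of any mapped protein in M phase. Of the 8221 sites, 7086 (86.2%) had none of the 5 proteins, and 811 (9.86%) had HNF4A alone again. Peaks of KLF5, MYC, RAD21 or CTCF reached 324 sites, or 3.94%, against 23.3% of all S-phase HNF4A peaks. That share includes peaks chosen for holding these proteins in S phase, so the order between these shares follows in part from the rule.

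RAD21 had the largest number of HNF4A-only sites with a new listing in M phase. Its M-phase list held 22966 peaks, against 24391 for CTCF, 2118 for KLF5 and 1974 for MYC. The part of list length in the order of the proteins was not tested. An M-phase RAD21 peak overlapped 224 HNF4A-only sites, or 2.72% (2.38 to 3.10%), against 13.4% of all S-phase HNF4A peaks. At 220 of them the M-phase RAD21 peak met no S-phase RAD21 peak, which follows largely from the rule. The RAD21 peaks at HNF4A-only sites were weak, with a median score of 63.9 and 23 tags. Over the whole M-phase RAD21 list these medians were 129 and 38. Of that list, 82.0% met an S-phase RAD21 peak, so the order of these medians may also follow in part from the rule. Filtered tags of the RAD21 library were 2.19 times as many in M phase as in S phase, and the part of this depth in the new peaks was not tested. With an M-phase FDR under 5%, 0.341% of the sites had a RAD21 peak.

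The other proteins were rarer. M-phase KLF5 peaks overlapped 66 sites, or 0.803% (0.621 to 1.02%, against 3.94% of all S-phase HNF4A peaks), under the doubt on that label given above. CTCF overlapped 42 sites, or 0.511% (0.368 to 0.690%, against 12.1%), and MYC 24 sites, or 0.292% (0.187 to 0.434%, against 4.96%). H3 was listed at 2 sites, or 0.0243% (against 0.0453%). The M-phase KLF5, MYC and RAD21 lists share their rabbit IgG control with M-phase HNF4A, so shared occurrence with kept HNF4A is given as counts only. HNF4A was kept at 29 of the 66 sites with KLF5, 13 of the 24 with MYC and 87 of the 224 with RAD21. CTCF has its own goat IgG control: HNF4A was kept at 9 of these 42 sites (21.4%, 10.3 to 36.8%). The difference from the sites without CTCF, standardised over 10 groups of the score, was 5.81 points (-3.05 to 14.7), an interval that includes 0.

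RAD21 and CTCF were newly listed less often at HNF4A-only sites than at HNF4A peaks shared with KLF5 or MYC. Both classes lacked RAD21 and CTCF peaks in S phase by rule. Filtered tags in M phase were 2.19 times those in S phase for RAD21 and 1.89 times for CTCF. The part of this depth in the new listings was not tested. In M phase RAD21 was listed at 2.72% of HNF4A-only sites and at 8.47% of peaks with KLF5 or MYC only (7.58 to 9.43%), which is -5.75 points apart (-6.76 to -4.80). When peaks were compared within groups of HNF4A score, this was -5.38 points (-6.38 to -4.39). For CTCF the shares were 0.511% and 5.21% (4.51 to 5.99%), a difference of -4.70 points (-5.49 to -4.00). Peaks with KLF5 or MYC were wider, and with RAD21 summits required within 100 bp of the HNF4A summit the shares were 1.05% and 2.59%, a difference of -1.55 points (-2.15 to -1.01). Restricted to M-phase peaks with an FDR under 5%, the differences kept their sign at -0.718 points for RAD21 and -0.171 points for CTCF. Few peaks were left at this limit. The shares were 0.341% and 1.06% for RAD21, and 0.0243% and 0.195% for CTCF.

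**Figure D4:**
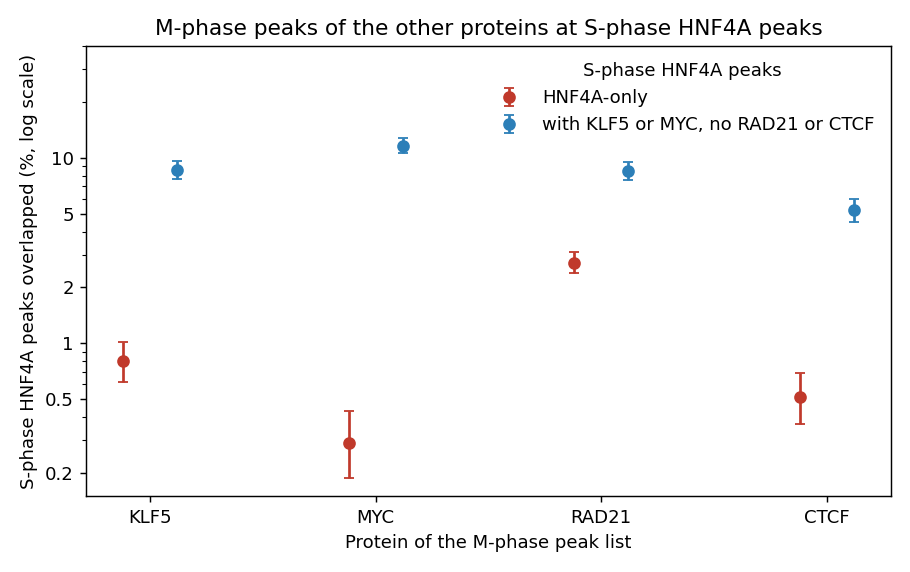
Share of S-phase HNF4A peaks overlapped by an M-phase peak of KLF5, MYC, RAD21 or CTCF (vertical axis, percent, log scale) for HNF4A-only sites and for HNF4A peaks with KLF5 or MYC but no RAD21 or CTCF, with 95% Clopper-Pearson intervals over peaks. For RAD21 the shares are 2.72% and 8.47% and for CTCF 0.511% and 5.21%, while the classes differ in KLF5 and MYC by how they were chosen.

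The rule keeps HNF4A-only sites off the other proteins' S-phase peaks, so the gaps to these peaks describe the sites and carry no test. The median gap to the nearest S-phase peak of KLF5, MYC, RAD21 or CTCF was 14348 bp, with quartiles of 5156 and 35322 bp. The nearest such peak was CTCF for 4014 sites (48.8%), RAD21 for 1814, MYC for 1714 and KLF5 for 679, which is also the order of the lengths of these lists (28474, 27122, 11941 and 5928 peaks). These counts cover all sites, so they include the few on contigs with no such peak, which have no nearest protein. The median gap was nonetheless shorter to RAD21, 23973 bp, than to CTCF, 27507 bp, and it was 56039.5 bp to MYC and 132524 bp to KLF5. Only 1222 sites (14.9%) lay within 10000 bp of an HNF4A peak that did overlap another protein.

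The kept share differed little with this distance. It was 10.8% (8.33 to 13.6%) for the 567 sites with a gap of up to 1000 bp and 11.5% (10.3 to 12.8%) for the 2737 sites up to 10000 bp. Farther out it was 11.1% (10.2 to 12.1%) for the 4412 sites up to 100000 bp and 12.9% (10.1 to 16.1%) for the 505 sites beyond, which include 4 on contigs with no such peak. All 4 intervals overlap. By nearest protein it ranged from 10.4% beside CTCF (9.46 to 11.4%) to 12.5% beside RAD21 (11.03 to 14.1%).

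**Figure D5:**
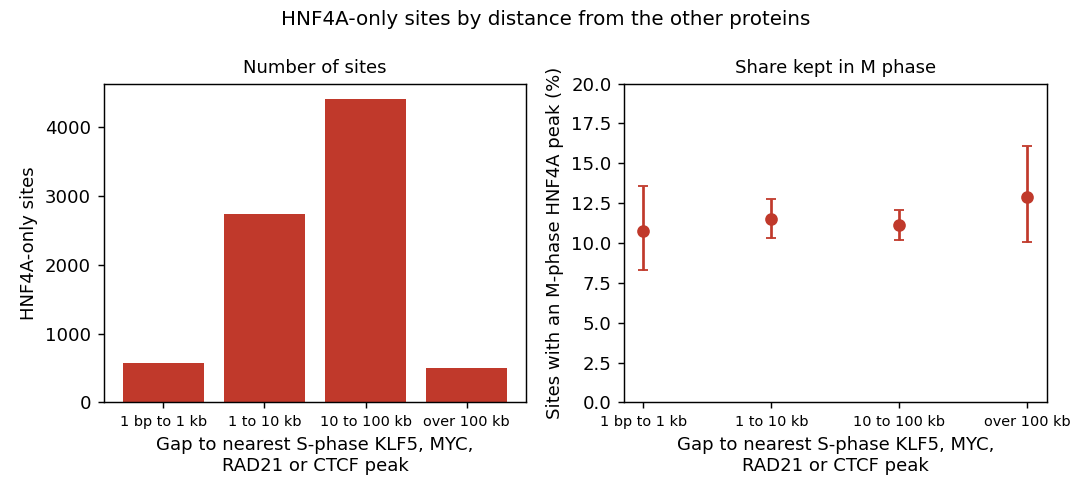
Number of HNF4A-only sites (left, bars) and share of them with an M-phase HNF4A peak (right, percent, with 95% Clopper-Pearson intervals over peaks), by the gap to the nearest S-phase peak of KLF5, MYC, RAD21 or CTCF (horizontal axes). Most sites, 4412, lie 10 to 100 kb away, and the kept share stays between 10.8 and 12.9% in all classes.

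Some sites, 19.7%, stood near another HNF4A-only site. At gaps of at most 10000 bp, 1618 sites formed 743 runs, of which 634 had 2 sites, 91 had 3, 13 had 4 and 5 had 5. Sites in runs were kept in 13.9% of cases (12.3 to 15.7%) and single sites in 10.7% (9.97 to 11.5%). The difference was 3.20 points (1.42 to 5.11), but sites in runs were stronger, with a median score of 97.3 against 89.2. Standardised over 10 groups of the score it was 1.25 points (-0.372 to 2.88), an interval that includes 0. In the 634 pairs, both sites were kept in 17, 1 in 138 and neither in 479.

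The 3 runs of 5 sites that are named first differed in outcome. On chromosome 14, 5 sites from 92583021 to 92592489 held between 21 and 63 S-phase tags, and the 2 strongest, with 46 and 63 tags, were kept with 24 and 13 M-phase tags. At chr17:25675461-25701282, where 2 RAD21 and 2 CTCF peaks lay between the sites, tags ranged from 27 to 98. Only the site of 91 tags at 32.63-fold was kept, with 24 M-phase tags, and not its neighbour of 98 tags at 10.03-fold. On chromosome 2, none of 5 sites from 60490792 to 60515437, with 14 to 35 tags, was kept.

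HNF4A-only sites occurred on all chromosomes of the list. Their share among HNF4A peaks was lowest on chromosome 19 (36.6% of 533 peaks), 17 (40.0% of 718), 15 (43.4% of 613) and 22 (43.4% of 274), and highest on chromosome X (78.0% of 191) and 13 (63.8% of 367) among chromosomes with at least 100 HNF4A peaks. The kept share among these chromosomes ranged from 5.04% on chromosome 22 (6 of 119 sites, 1.87 to 10.7%) to 15.6% on chromosome 14 (38 of 244 sites, 11.3 to 20.7%). Both extremes were picked from all these chromosomes after their values were seen. Their intervals do not overlap, and that of chromosome 22 lies below the 11.3% of all sites. Intervals of extremes picked in this way cannot show a difference between chromosomes.

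The same rule applied to the other factors left fewer sites. Of the S-phase MYC peaks 28.9% were MYC-only (3453 peaks), and of the KLF5 peaks 15.7% were KLF5-only (931 peaks). MYC-only sites were kept by MYC in 10.98% of cases (9.95 to 12.1%, against 12.6% of all S-phase MYC peaks), and the difference from other MYC peaks turned from -2.23 points (-3.47 to -0.937) to 1.98 points (0.958 to 2.99) once standardised over the MYC score. KLF5-only sites were kept by KLF5 in 5.26% (3.92 to 6.90%, against 11.4% of all S-phase KLF5 peaks), and here the standardised difference stayed negative at -2.03 points (-3.57 to -0.485). The KLF5 values rest on the M-phase KLF5 list, under the doubt on that label given above. Filtered tags in M phase were 0.712 times those in S phase for KLF5, 1.65 times for MYC and 1.38 times for HNF4A. The part of this depth in the kept shares was not tested. Over groups of the score, HNF4A and MYC thus gave standardised differences of the same sign. Over groups of fold enrichment the HNF4A value was negative, at -1.64 points, and for MYC only the score was used. No test of the difference between factors was made.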

How the data were processed

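The data are 12 ChIP-seq peak lists, for 6 targets (HNF4A, its 4 comparison proteins and histone H3) in both phases, and 4 of the 16 libraries are IgG controls. Groups came from sample titles. Reads were processed with CASAVA 1.4, BWA and MACS 1.4 on build hg18, per the submitters' processing notes. The file headers give MACS 1.4.0rc2, a p-value cutoff of 1e-05 and IgG of the same phase as control (goat for CTCF, rabbit otherwise). Per the file headers, each peak has a raw tag count. Its deposited score is 10 times the negative log10 of the p-value, so that the caller's limit is a score of 50. Fold enrichment is deposited as a ratio over the local control background, and the deposited FDR is a percent.

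Overlaps, gaps and intervals were computed in Python (version 3.11.15) using scipy (1.17.1), numpy (2.4.6) and, for tables, pandas (2.3.3), and the steps were tested on simulated data. Tags were scaled by the filtered library tags in the headers. A standardised difference weights each group of peaks by its smaller class, and its 95% interval is a normal one that uses binomial variances. With 1 library per group no p-value was computed. The sites, regions and tests were chosen with earlier results of these data known. Named regions lie on chromosomes 1 to 22 and X except 8, away from H3 peaks: the highest fold enrichment among kept (5), not kept (5) and with an M-phase peak of another protein, the most M-phase tags, the lowest score and the largest runs (3 each). A part of these is named. No genome sequence or annotation of hg18 was used here, so no sequence, motif or gene is given. Other overlap rules, limits on score and FDR, membership rules and measures of strength were tried as alternatives.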

Additional observations from a re-analysis of the deposited data

How the results depend on the processing

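No paired analysis was possible because each target has 1 library per phase. Of 72 alternative values, 34 stayed within the interval of the reported value, 36 moved outside it and 2 changed sign. The kept share of 11.3% became 6.80% with 50% of each peak shared, 8.55% with summits within 100 bp and 7.39% with a score of at least 100 in both HNF4A lists. The unadjusted difference of -2.09 points became 0.259 with 50% of each peak shared and -0.637 with summits within 100 bp. The standardised difference of 2.28 points became 0.997 with a score of at least 100, 1.097 with 5 groups of the score, 4.65 with groups of tags and -1.64 with groups of fold enrichment. The cause of this reversal was not tested. Groups of width gave 2.996, and summits within 100 bp with 20 groups of score 2.93, both chosen after seeing the data.

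Shares of HNF4A-only sites with an M-phase peak moved with every limit for RAD21. With 50% of each peak shared they were 0.487% for KLF5, 2.24% for RAD21 and 0.328% for CTCF. Within 1000 bp RAD21 had 4.65%, CTCF 2.41%, KLF5 1.07% and MYC 0.633%. With a score of at least 100, RAD21 had 0.341%, CTCF 0.109%, KLF5 0.0487% and MYC 0.0365%. With an FDR under 5% they were 0.122% for KLF5, 0% for MYC and H3, 0.341% for RAD21 and 0.0243% for CTCF. The difference in M-phase RAD21 from peaks with KLF5 or MYC only, in alternatives chosen after seeing the data, was -3.72 points with 50% shared, -1.55 with summits within 100 bp, and -0.718 both with a score of at least 100 and with an FDR under 5%. For CTCF these were -2.18, -1.16, -1.26 and -0.171 points. Sites in runs were 12.7% at gaps of 5000 bp and 29.3% at 20000 bp. With 50% of each peak shared, 9.18% of MYC-only and 3.33% of KLF5-only sites were kept.

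The S-phase list holds no HNF4A peak with an FDR of 5% or more, so that limit changed nothing there. Applied to the M-phase HNF4A list, in an alternative chosen after seeing the data, it left 0 of 2413 peaks, so the kept share became 0% in every class.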
